A study of Mus musculus with 6 samples.

Results

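The aryl hydrocarbon receptor pathway was followed through 6 genes: Ahr, Ahrr, Tiparp, Cyp1a1, Cyp1b1 and Nqo1. They were chosen by symbol, and all 6 are among the 24421 genes of the count matrix. The matrix was made by RNA-seq of regulatory T (Treg) cells, sorted as CD4+YFP+ cells from spleen. All mice were C57BL/6 females, 8 to 11 weeks of age. The WT group was 3 Foxp3Cre mice and the KO group 3 Foxp3Cre miR-142fl/fl mice, with 1 library per mouse and no treatment of the cells. Both groups carry the Cre-YFP fusion under the Foxp3 promoter, so the microRNA gene is deleted in Foxp3-expressing cells of KO mice only. The KO cells come from animals in which the other cells keep miR-142. The study reports a systemic autoimmune disorder in KO mice, and names their inflammation as a possible source of expression changes in Treg cells. The part of the deletion and of the inflammation in the changes below was not tested.

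The receptor is a transcription factor of the bHLH-PAS family that sits in the cytoplasm with chaperones until it binds a ligand, such as a plant indole, a tryptophan metabolite or a dioxin. It then enters the nucleus, pairs with ARNT and binds a short DNA element in genes for xenobiotic-metabolizing enzymes, among them Cyp1a1 and Cyp1b1. Ahrr and Tiparp are induced by the receptor and restrain it, and in T cells the receptor is known for its part in the balance between Treg cells and cells that make IL-17 or IL-22.

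Total counts were between 13883069 and 24042994 per library, and a count of 3 corresponded to 0.123 to 0.227 CPM (counts scaled to library size by the TMM normalization of edgeR). The 9 Treg and T cell markers, Foxp3 and Cd4 among them, all exceeded 1 CPM in every WT library and summed to 5854 to 6452 CPM in WT and 7604 to 8615 CPM in KO. KO replicate 1 stood apart. Its macrophage and monocyte markers summed to 2728 CPM against 77.5 or less in the other libraries, its neutrophil markers to 890.3 against 40.9 or less, its dendritic cell markers to 155.9 against 6.71 or less and its B cell markers to 206.3 against 21.8 or less. In the other KO libraries the neutrophil sums above WT came from few genes of the list. Mpo and Elane gave most of the neutrophil sum, and without this pair the list was at 0.303 CPM in KO replicate 2, 4.45 in KO replicate 3 and 0.221 to 0.328 in WT, against 866 in KO replicate 1. The macrophage sums of KO replicates 2 and 3 (77.5 and 22.7 CPM, against 12.6 or less in WT) held 35.1 and 11.2 CPM of Vcam1. C1qa, a defining marker, was at 6.51 and 0.274 CPM there and at 0.387 CPM or less in WT. It was at 281.9 CPM in KO replicate 1. KO replicate 2 also held Csf1r (12.6 CPM), C1qb (5.91), C1qc (6.74) and Adgre1 (3.03), each at 0.83 CPM or less in WT. Cd68 was at 4.09 CPM in that library and at 4.31 to 6.97 CPM in WT. In bulk libraries, more cells that express a gene and more RNA of it per cell cannot be told apart. CD8 and NK cell markers summed to 20.1 to 24.3 CPM in WT and 44.5 to 77.8 in KO, but without Eomes to 15.7 to 17.98 CPM in WT, 38.7 in KO replicate 1 and 13.7 and 14.6 in KO replicates 2 and 3, and Klrb1c of that list was called lower (log2 fold change -1.97, SE 0.48, edgeR FDR = 0.0308). Summed levels in WT and KO were, for erythroid markers, 0.885 to 1.11 and 2.81 to 13.4 CPM, for stromal and endothelial markers 239.5 to 256.6 and 221.1 to 304.3 CPM, and for mast cell and basophil markers 0.609 to 0.82 and 0.151 to 2.05 CPM. Of the erythroid markers, 5 globin genes were at 0 in all libraries, as were Dcn and Pdpn of the stromal list and Tpsb2 and Cma1 of the mast cell list.

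The deleted gene makes a 5p and a 3p microRNA. Both mature strands are shown because matches to their seeds were looked for in the 6 genes. The sequences are those of RefSeq (GRCm38.p6, chromosome 11, + strand, chr11:87756867-87756887 for 5p and chr11:87756903-87756925 for 3p), written 5′ to 3′ with the seed, bases 2 to 8, in capitals. The strands do not share a seed.
mmu-miR-142a-5p: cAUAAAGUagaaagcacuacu
mmu-miR-142a-3p: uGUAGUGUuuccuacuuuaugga

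In the longest annotated 3′ UTR of each gene (GENCODE vM21, GRCm38), a match counted when it held the complement of bases 2 to 8 (7mer-m8, ACTTTAT for 5p and ACACTAC for 3p), the complement of bases 2 to 7 followed by A (7mer-A1, CTTTATA for 5p and CACTACA for 3p), or both (8mer). Ahr and Ahrr each held an 8mer, for different strands. Tiparp and Cyp1b1 each held a 7-base match to both strands, and Cyp1a1 and Nqo1 held none. The sites are printed with 10 bases on either side, in the direction of the transcript, with the match in capitals. They are the only matches to these seeds in the 3′ UTRs searched.
Ahr, 5p 8mer: tgtgatattgACTTTATAaattccactt
Ahrr, 3p 8mer: ctttaggcatACACTACAgtgcagctgt
Tiparp, 5p 7mer-m8: atttacccaaACTTTATgggaacttct
Tiparp, 3p 7mer-m8: actgtaccttACACTACttactttaat
Cyp1b1, 5p 7mer-A1: gcttcaactcCTTTATAgccctggatg
Cyp1b1, 3p 7mer-A1: ataggaggctCACTACAaccagtaatt

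The capitals lie at chr12:35499518-35499525 (- strand) for Ahr, chr13:74211241-74211248 (- strand) for Ahrr, chr3:65554792-65554798 and chr3:65554564-65554570 (+ strand) for the 5p and 3p sites of Tiparp, and chr17:79709590-79709596 and chr17:79708694-79708700 (- strand) for those of Cyp1b1. Each is in the 3′ UTR and in the last exon of its transcript, exon 11 of 11 for Ahr and Ahrr, 6 of 6 for Tiparp and 3 of 3 for Cyp1b1. Of the 10786 tested genes with a matched 3′ UTR, 23.5% held a 5p match and 12.2% a 3p match by the same definition, so a match by itself is common. These shares count matches of any type, and the share of genes with an 8mer was not computed. With the 3p seed moved by 1 base, a search added after the first results, Tiparp held an 8mer (AACACTAA) and Ahrr a 7mer-A1 (ACACTAA). Some match to the shifted seed, of any type, was held by 15.4% of those tested genes. In its Hif1a and Ifngr2 reporters, the study mutated AACACTAA as a match to a miR-142-3p seed.

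**Figure D1:**
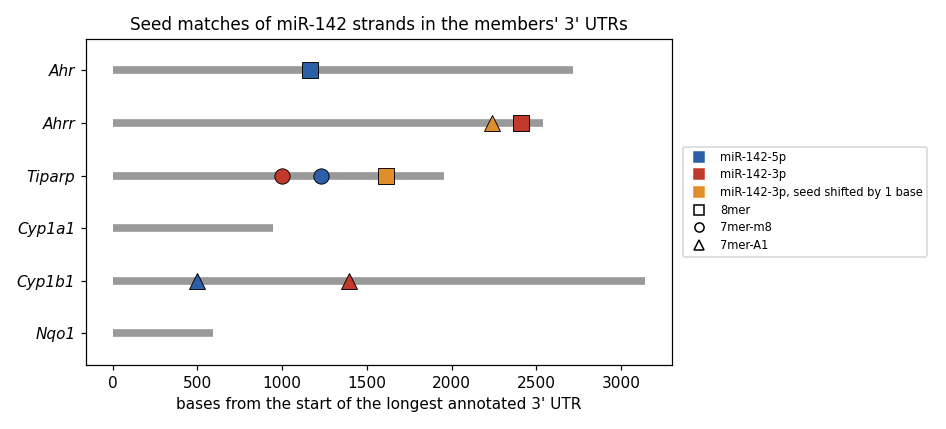
Position of miR-142 seed matches along the longest annotated 3′ UTR of each gene, in bases from the start of the UTR, with colour for the microRNA strand and shape for the type of match. Ahr has a single 5p 8mer in a UTR of 2715 bases, Tiparp has matches for every seed searched within 1953 bases, and Cyp1a1 (945 bases) and Nqo1 (594 bases) have none.

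The receptor gene Ahr doubled in KO Treg cells, whereas its target and repressor Tiparp was not called different. The other feedback gene, Ahrr, and both Cyp1 genes were too scarce to be tested. Of the 6 genes, 3 passed the filter of more than 1 CPM in at least 3 libraries, and Ahr and Nqo1 were called higher in KO at an FDR under 0.05 (edgeR's quasi-likelihood test, Benjamini-Hochberg adjustment over 11658 genes). Over all genes tested, 18.8% were called in either direction and 11.6% were called higher. Nqo1 passed the filter through its KO libraries alone, so the 2 calls are not a share of the 6 genes. With 3 mice against 3, an exact two-sided permutation test cannot give a p below 0.1, and Ahr was at that value. Nqo1 was there too, but the filter had fixed this in advance, as only its KO libraries were above 1 CPM.

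Ahr encodes the receptor itself (GRCm38, chr12:35497974-35535038, - strand). Its level was 45.1, 50.6 and 53.3 CPM in WT replicates 1 to 3, and 108.6, 100.5 and 103.5 CPM in KO replicates 1 to 3. The groups did not overlap, which was so in either direction for 41% of the tested genes, and the spread within each group was small beside the gap. Mean levels of 49.7 ± 4.14 CPM (WT) and 104.2 ± 4.09 CPM (KO; SD over 3 libraries) gave a log2 fold change of 1.07 (SE 0.09, 95% confidence interval 0.85 to 1.29, edgeR FDR = 0.000996), or 2.10-fold. The values rest on 733 to 1957 reads per library.

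The rise in Ahr did not depend on KO replicate 1. Without that library and with the same genes kept, its log2 fold change was 1.04 (SE 0.11, edgeR FDR = 0.000714), and over all 6 fits that left out 1 library it lay between 0.998 and 1.12. The study marked Ahr as a miR-142-5p target when it displayed these samples, so its direction here is not independent evidence about that label. Gm48236, a long non-coding RNA gene on the opposite strand, overlaps 618 bases at the 5′ end of Ahr, and unstranded counting cannot separate reads of the pair there.

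**Figure D2:**
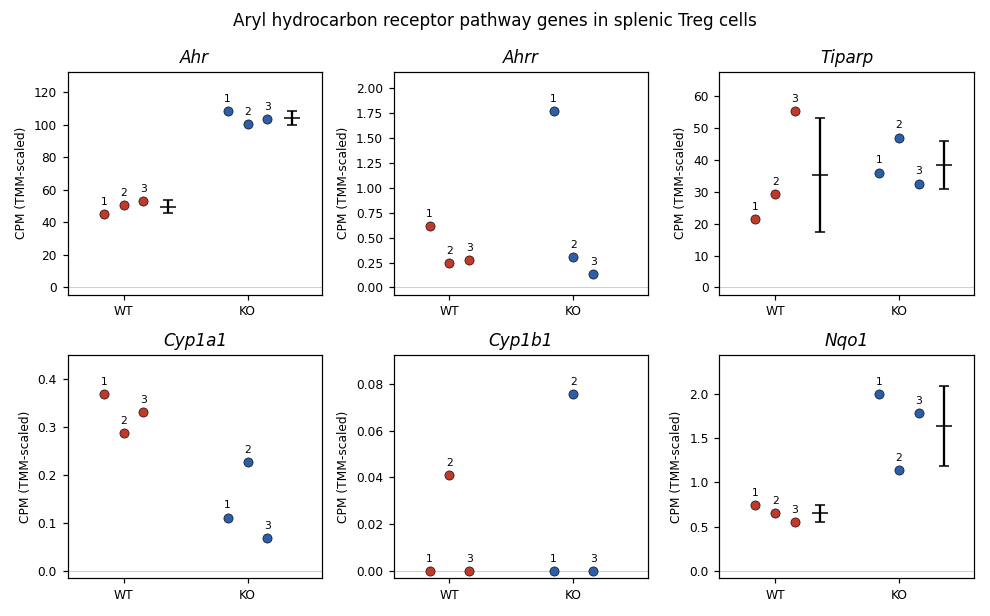
Level of each gene in each library, in TMM-scaled CPM on a linear axis of its own, with WT in red, KO in blue and the replicate number above each point; black bars are the mean and SD of 3 libraries, drawn for the 3 tested genes. Ahr separates cleanly between 45.1 to 53.3 and 100.5 to 108.6 CPM, Tiparp overlaps, and KO replicate 1 alone is high for Ahrr.

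Tiparp encodes a mono-ADP-ribosyltransferase that modifies the receptor and limits its activity, and is a standard readout of receptor activity (GRCm38, chr3:65528410-65555518, + strand). It was at 21.3, 29.2 and 55.3 CPM in WT replicates 1 to 3 and at 35.97, 46.9 and 32.5 CPM in KO replicates 1 to 3. WT replicates 1 and 2 were the lowest libraries and WT replicate 3 the highest of all, so that the KO values lay inside the WT range. The log2 fold change was 0.12 (SE 0.34, 95% confidence interval -0.66 to 0.91, edgeR FDR = 0.822), an interval that leaves room for a change of either sign and for most of the size of the change in Ahr.

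The scatter of Tiparp came from the WT mice, whose highest level was 2.60 times the lowest. Without WT replicate 3 the log2 fold change was 0.60 (SE 0.22, edgeR FDR = 0.147), and without WT replicate 1 it was -0.14 (SE 0.29, edgeR FDR = 0.782). A processed pseudogene on the opposite strand, 4931440P22Rik, overlaps 970 bases at the 5′ end of Tiparp. Per kilobase of exon, Ahr and Tiparp were level in WT Treg cells, with 8.06 ± 0.67 and 8.09 ± 4.09 CPM per kb. In KO Treg cells Ahr reached 16.9 ± 0.66 CPM per kb while Tiparp was at 8.83 ± 1.73.

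Ahrr encodes the receptor's repressor, a relative that competes for ARNT (GRCm38, chr13:74211118-74292331, - strand). It had 10, 6 and 5 counts in WT replicates 1 to 3 and 32, 4 and 2 counts in KO replicates 1 to 3, or 0.616, 0.246 and 0.277 CPM against 1.78, 0.303 and 0.137 CPM. KO replicate 1 was high and the other KO libraries were within or below the WT range. The pooled KO to WT ratio was 2.32 (95% interval 1.33 to 4.16, which covers counting error only). It rests on KO replicate 1, the library with the highest macrophage, neutrophil, dendritic and B cell marker sums. In a fit without the filter, where 10.1% of 17585 genes were called, the log2 fold change was 0.98 (SE 0.90, edgeR FDR = 0.507), and it turned to -0.77 (SE 0.79, edgeR FDR = 0.584) without KO replicate 1. The part of other cells in the Ahrr reads of that library was not tested.

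Cyp1a1 encodes the cytochrome P450 that is the best known induced target of the receptor and that breaks down its ligands (GRCm38, chr9:57687928-57703824, + strand). It had 6, 7 and 6 counts in WT replicates 1 to 3 and 2, 3 and 1 counts in KO replicates 1 to 3, or 0.370, 0.287 and 0.332 CPM against 0.111, 0.227 and 0.0684 CPM. All KO libraries were at or below the floor of 3 counts and below every WT library, which was so in either direction for 13.3% of the genes with 1 to 50 counts in all libraries together. The pooled ratio was 0.404 with a counting interval of 0.132 to 1.05, which includes no change. The fit without the filter gave a log2 fold change of -1.28 (SE 0.62, edgeR FDR = 0.228). The trace level of Cyp1a1 was therefore not higher in the libraries in which Ahr was higher, and these counts do not settle whether it was lower.

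Cyp1b1, a related P450 enzyme (GRCm38, chr17:79701537-79715061, - strand), had 1 count in WT replicate 2, 1 count in KO replicate 2 and 0 in the other libraries. Both groups are under the floor, so no fold is given. The other xenobiotic-metabolizing enzymes read here were as scarce, apart from Cyp1a1, Cyp2s1 and Nqo1. Cyp1a2 and Ugt1a6a had 1 count in all libraries together, as did Ugt1a6b, Aldh3a1 had 2, and Gsta1 and Gsta2 had 0. Cyp2s1, a P450 enzyme that passed the filter, had means of 5.32 ± 1.05 (WT) and 4.99 ± 0.89 (KO) CPM, with a log2 fold change of -0.09 (SE 0.24, edgeR FDR = 0.822).

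Nqo1 encodes a quinone reductase whose gene responds to the receptor and also to NRF2, the main regulator of antioxidant genes (GRCm38, chr8:107388225-107403206, - strand). It had 12, 16 and 10 counts in WT replicates 1 to 3 and 36, 15 and 26 counts in KO replicates 1 to 3. These are 0.739, 0.656 and 0.553 CPM in WT and 1.998, 1.14 and 1.78 CPM in KO. All KO libraries lay above all WT libraries, with KO replicate 1 the highest. Nqo1 passed the filter of more than 1 CPM through its KO libraries alone. The filter therefore fixed this lack of overlap, which is not a result. The means were 0.649 ± 0.093 and 1.64 ± 0.448 CPM, and the log2 fold change was 1.34 (SE 0.33, 95% confidence interval 0.57 to 2.11, edgeR FDR = 0.0317).

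The call for Nqo1 was close to its threshold. Without the filter its FDR was 0.0659 and in DESeq2 0.0591. Without KO replicate 1 the log2 fold change was 1.17 (SE 0.37, edgeR FDR = 0.0638), and with the same genes kept it was called in 1 of the 6 fits that left out a library, that without KO replicate 2. Hmox1, an NRF2 target abundant in red pulp macrophages and named after its values were seen, was at 312.7 CPM in KO replicate 1 and at 12.5 CPM or less in every other library. The part of other cells in the Nqo1 reads was not tested.

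**Figure D3:**
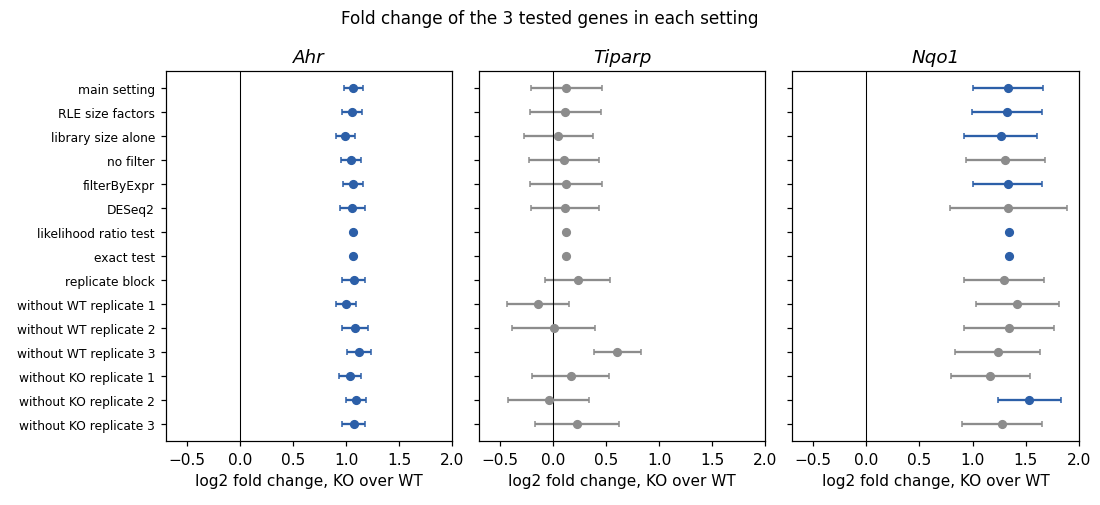
Log2 fold change (KO over WT) of the 3 tested genes in each setting, with bars of 1 SE (none for the likelihood ratio and exact tests), blue where the FDR was under 0.05 and grey where it was not; fits without a library keep the 11658 genes. Ahr stays between 0.99 and 1.12 and is blue throughout, Tiparp spans 0, and Nqo1 is grey in 8 of the 15 settings.

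Per kilobase of exon, the 6 genes fell into an expressed pair and a set of trace genes. In WT, Nqo1 was at 0.418 ± 0.06 CPM per kb, Cyp1a1 at 0.118 ± 0.0148, Ahrr at 0.0402 ± 0.0217 and Cyp1b1 at 0.00234 ± 0.00405. In KO, Nqo1 was at 1.05 ± 0.289, Ahrr at 0.0782 ± 0.0956, Cyp1a1 at 0.0486 ± 0.0295 and Cyp1b1 at 0.00432 ± 0.00748. The order of Ahrr and Cyp1a1 differs between the groups, and in KO these neighbours were within the SD of Ahrr.

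**Figure D4:**
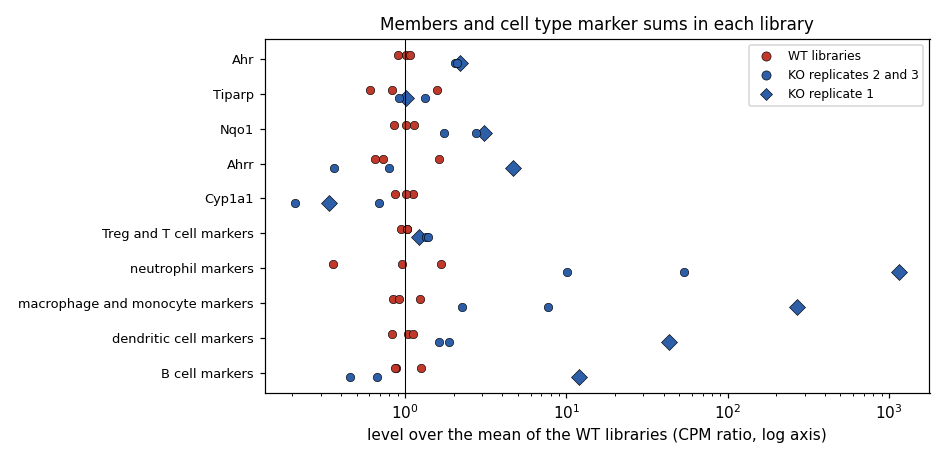
Level of 5 of the genes and of 5 marker sums in each library, divided by the mean of the WT libraries (ratio of CPM, log axis), with KO replicate 1 as a diamond. KO replicate 1 lies with the other KO libraries for Ahr and far above all libraries for Ahrr and for the macrophage, neutrophil, dendritic and B cell marker sums.

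The core of the element that the receptor and ARNT bind, GCGTG, was searched on both strands of the RefSeq promoters (GRCm38.p6, 250 bases before to 50 after the gene start). It was found 3 times in Ahrr, 1 time each in Cyp1a1, Tiparp and Cyp1b1, and not in Nqo1, in 5 members with a promoter sequence. Of the promoters of tested genes 50.7% held it, and of all 32851 promoters 32.4%, so its presence is a description and not a binding site. The matches are shown with 7 bases on either side in the direction of the gene, with the core in capitals, which reads CACGC where it lies on the opposite strand. Their distances from the gene start to the first capital were 107, 82 and 27 bases upstream for Ahrr, 54 for Cyp1a1, 170 for Tiparp and 76 for Cyp1b1. The gene start is that of the RefSeq promoter, which can differ from the start of the GENCODE span given for each gene. For Cyp1a1 the promoter searched (chr9:57697363-57697662) lies inside the GENCODE span (chr9:57687928-57703824), and sequence before the start of that span was not searched.
Ahrr, chr13:74292427-74292445: aaagggcGCGTGgcaggca
Ahrr, chr13:74292402-74292420: aggatgtGCGTGcgccctc
Ahrr, chr13:74292347-74292365: gcggctcGCGTGctggggt
Cyp1a1, chr9:57697552-57697570: taaggagGCGTGgccaaca
Tiparp, chr3:65528270-65528288: tccggagCACGCgcacggg
Cyp1b1, chr17:79715126-79715144: cgcccctCACGCcccaccc

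Among genes called higher around the receptor, the same search found the core 18 bases upstream in 1 of the 2 Entpd1 promoters and not in those of Arnt2 and Gpr15. Ahrr, Cyp1a1 and Cyp1b1 were too scarce to be tested, so these matches cannot be set against the calls.

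Around the receptor, the complex that holds it and acts with it was then read. Of 11 genes of the list, all tested, 4 were called, all higher (median log2 fold change 0.07, against 0.02 over all genes tested). That is 36.4%, against 18.8% called in either direction and 11.6% called higher over all genes tested. Ahr, Arnt2 and Src were among them. Arnt2, a dimerization partner related to ARNT, was at 17.6, 11.7 and 14.9 CPM in WT and at 125.2, 70.2 and 68.8 CPM in KO replicates 1 to 3. All KO libraries were several times above WT, with a log2 fold change of 2.58 (SE 0.28, edgeR FDR = 0.00198) and of 2.24 without KO replicate 1 (SE 0.17, edgeR FDR = 0.000172). Arnt, the usual partner, had means of 120.1 ± 2.28 (WT) and 117.1 ± 8.36 (KO) CPM, with a log2 fold change of -0.04 (SE 0.08, edgeR FDR = 0.784).

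Src, a kinase found in the cytoplasmic complex, rose from 19.6 ± 2.67 to 36.8 ± 2.70 CPM (log2 fold change 0.91, SE 0.13, edgeR FDR = 0.00551). The chaperone Hsp90ab1 was at 1764 ± 354 CPM in WT and 1400 ± 274 CPM in KO and was not called (edgeR FDR = 0.269). The coactivators Ncoa3 and Ncoa2 were not called either, with log2 fold changes of 0.16 and -0.10.

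The wider bHLH-PAS family had 14 of 19 genes tested, of which Ahr, Arnt2 and Epas1 were called higher and Npas4 lower (median log2 fold change 0.06). These calls are 28.6% of those tested, against 18.8% over all genes. Epas1, the hypoxia-inducible factor 2 alpha subunit, had a log2 fold change of 3.14 (SE 0.34, edgeR FDR = 0.00194), from 11.5 ± 3.47 to 100.7 ± 39.6 CPM. Npas4, a factor best known in neurons, fell by 2.43 on the log2 scale (SE 0.19, edgeR FDR = 0.000877), from 28.4 ± 5.12 to 5.24 ± 0.684 CPM. Hif1a and Per1 were not called, with log2 fold changes of -0.09 and -0.51. Ahr had the smallest SE of the 4 called genes.

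Genes tied to the receptor in T cells gave 7 tested of 12, with 2 called, both higher (median log2 fold change 0.49). The share called was 28.6%, against 18.8% over all genes tested. Entpd1, the ectoenzyme CD39, rose from 46.7 ± 3.60 to 144.9 ± 56.5 CPM (log2 fold change 1.63, SE 0.25, edgeR FDR = 0.00656), and by 1.27 without KO replicate 1 (SE 0.11, edgeR FDR = 0.000273). Gpr15, a homing receptor of T cells in the colon, rose from 17.5 ± 4.88 to 35.0 ± 7.21 CPM (log2 fold change 0.998, SE 0.24, edgeR FDR = 0.028), a call that was lost without WT replicate 2 (edgeR FDR = 0.0914), WT replicate 3 (edgeR FDR = 0.0971) or KO replicate 3 (edgeR FDR = 0.0728). Ikzf3, Maf and Il10 were not called, with log2 fold changes of 0.49, 0.35 and 0.53.

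Il22 and Il17a, the cytokines most often read for the receptor in helper T cells and named here after their values were seen, had 0 counts in all 6 libraries, and 3 counts, the limit that a count of 0 allows, are 0.123 to 0.227 CPM. Il21, also named after its values were seen, was at 3.64 ± 1.43 CPM in WT and 1.07 ± 1.096 CPM in KO. It was not called with all libraries (log2 fold change -1.72, SE 0.66, edgeR FDR = 0.112) and was called lower without KO replicate 1 (log2 fold change -3.06, SE 0.51, edgeR FDR = 0.00552). Ikzf3 was likewise called without that library (log2 fold change 0.60, SE 0.14, edgeR FDR = 0.0203).

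Genes that make, break down or carry tryptophan and its metabolites, a source of receptor ligands, had 9 of 14 tested (median log2 fold change 0.26). Tph1, Slc7a8, Kynu and Slc7a5 were called higher, but the first 3 passed the filter through the KO libraries alone, so the calls are not a share of the list. Tph1, which starts serotonin synthesis from tryptophan, had 1, 0 and 1 counts in WT and was at 6.33, 2.04 and 10.7 CPM in KO replicates 1 to 3. Its pooled counts were 2 in WT and 298 in KO, a ratio of 190.8 with a counting interval of 52.4 to 1583 (edgeR FDR = 0.00364). Every WT library was under the floor of 3 counts, so the size of this fold is uncertain. Counting intervals leave out the spread between mice. Slc7a8, an amino acid carrier, went from 14 to 576 pooled counts, a ratio of 52.7 with a counting interval of 31.2 to 97.0 (edgeR FDR = 0.0033), and was at 22.0, 5.45 and 7.39 CPM in KO replicates 1 to 3. Both were higher without KO replicate 1 as well, with log2 fold changes of 7.28 (SE 1.002, edgeR FDR = 0.00247) and 4.72 (SE 0.38, edgeR FDR = 0.000237).

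Kynu, an enzyme of the kynurenine route, was at 4.50, 1.36 and 1.16 CPM in KO replicates 1 to 3 and at 0.554 CPM or less in WT, with 17 against 116 pooled counts (edgeR FDR = 0.0285). Its call was lost on leaving out any WT library (edgeR FDR from 0.0509 to 0.12). Slc7a5, the carrier through which T cells take up tryptophan and kynurenine, rose from 56.2 ± 3.82 to 77.4 ± 6.86 CPM (log2 fold change 0.46, SE 0.10, edgeR FDR = 0.0209), a call that was lost on leaving out any WT library (edgeR FDR from 0.0573 to 0.0954). Its partner chain Slc3a2 was not called (log2 fold change 0.04, SE 0.17, edgeR FDR = 0.883), nor were Afmid and Slc36a4, at 0.02 and -0.07.

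In the antioxidant list, to which Nqo1 also belongs, 18 of 20 genes were tested and Nqo1 alone was called (median log2 fold change 0.32). Over all genes tested, 18.8% were called. Nqo1 passed the filter through its KO libraries alone, so its call is not a share of the list. The count depended on the setting, with 3 genes called higher in DESeq2, in the likelihood ratio test and in the exact test, and 4 without KO replicate 2 with the same genes kept. The iron-storage genes Fth1 and Ftl1 had log2 fold changes of 0.59 and 0.36 and were not called. Fth1 was at 976.8 CPM in KO replicate 1 and at 451.7 CPM or less in all other libraries. Bach2, a repressor of such genes, had a log2 fold change of 0.13. Without KO replicate 1, with the same genes kept, Gclc was called higher (log2 fold change 0.67, SE 0.12, edgeR FDR = 0.00615) and Gsr lower (log2 fold change -0.47, SE 0.13, edgeR FDR = 0.0372), and Nqo1 was not called. Both were named after their values were seen, and both make or recycle glutathione.

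The PARP family, to which Tiparp belongs, had all 16 genes tested, with 1 higher and 3 lower (median log2 fold change -0.06). The share called was 25%, against 18.8% over all genes tested. In DESeq2 and with scaling by library size alone, 5 were lower. Parp12, an interferon-induced member, had a log2 fold change of 1.35 (SE 0.27, edgeR FDR = 0.0162), while Parp4, Parp8 and Parp16 were lower by log2 fold changes of -0.41, -0.44 and -0.86. With the same genes kept, the 4 calls were down to 2 without WT replicate 1 and to 1 without WT replicate 3, and all were lost without WT replicate 2 (edgeR FDR from 0.0629 to 0.073). Zc3hav1, Parp14 and Tnks2, the members with the highest CPM among those not called, had log2 fold changes of -0.04, 0.09 and -0.30. Tiparp itself is the member with the widest relative spread among the WT libraries, with an SD of 17.8 CPM around a mean of 35.3.

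**Figure D5:**
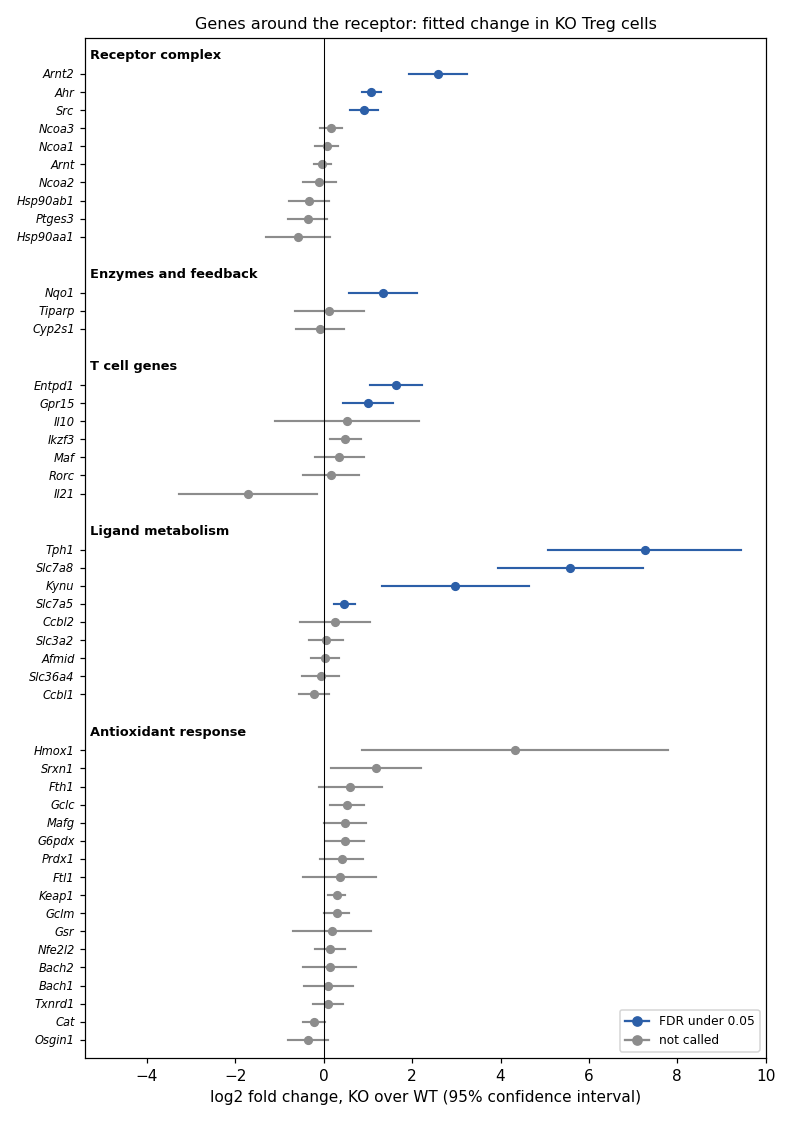
Fitted log2 fold change (KO over WT) with its 95% confidence interval for tested genes of 5 lists around the receptor, blue where the FDR was under 0.05. Arnt2 (2.58) and Ahr (1.07) lead the receptor complex while Arnt (-0.04) lies at 0, and the intervals of Hmox1 and Tph1 are the widest shown.

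The tested genes whose levels over the 6 libraries were most like those of Ahr were Socs3, Il2rb, Hspa4l, Cfl2 and Nck2. Likeness was the root mean square difference of log2(CPM + 0.5) after centring on the WT mean, and it was 0.0735 for Socs3, a cytokine signalling inhibitor, and 0.0812 for Il2rb, the IL-2 receptor beta chain. Il2rb was at 1032, 1011 and 1044 CPM in WT replicates 1 to 3 and 2094, 2101 and 2099 CPM in KO replicates 1 to 3. It shared with Ahr a change of about the same size (2.04-fold) and little scatter within groups.

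Nearest to Tiparp were Snord16a (0.111), Zc3h12a (0.131), Slc38a2 (0.141), Errfi1 (0.149) and Dpm1 (0.15). Zc3h12a, the RNase Regnase-1, was at 70.3, 77.4 and 177.1 CPM in WT replicates 1 to 3 and 108.1, 125.4 and 91.2 CPM in KO replicates 1 to 3. It had the same order of libraries as Tiparp, with WT replicate 3 the highest and WT replicate 1 the lowest. Among the genes nearest to Nqo1 were Stx12 (0.0524), Osm (0.0636), Psmb10 (0.0731) and Capg (0.0774). Stx12, a syntaxin of vesicle traffic, was at 30.8, 29.5 and 27.3 CPM in WT replicates 1 to 3 and at 66.6, 45.05 and 58.9 CPM in KO replicates 1 to 3, with KO replicate 2 the lowest of the KO libraries, as for Nqo1.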

How the data were processed

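Treg cells were sorted from 3 WT and 3 KO mice, with 1 library per mouse. Per their methods, the authors aligned 51-base single-end reads with HISAT to mm10 (GRCm38), counted them on genes with featureCounts in unstranded mode, and deposited the raw, unnormalized counts. Counting without strand leaves reads of overlapping opposite-strand genes unresolved.

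The test was edgeR 4.0.16 (R 4.3.3; TMM, quasi-likelihood F test, FDR threshold 0.05), on genes above 1 CPM in 3 or more libraries. CPM are counts over the TMM-scaled library size. Alternatives used DESeq2 1.42.0, other scalings, filters and tests, and fits without each library. The fit was tested on simulated data. Coordinates and 3′ UTRs came from GENCODE vM21, and microRNAs and promoters from RefSeq.

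The members and gene lists were chosen with earlier results of these data known. Named were the 6 members, each list's called genes, its 3 uncalled genes of highest CPM and the 5 profiles nearest to each tested member by root mean square difference. Genes said to be named after their values were seen lie outside this rule, as do the untested enzymes. Protein identity was not computed. The values of some single genes that the rule names are not reported here.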

Additional observations from a re-analysis of the deposited data

How the results depend on the processing

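Ahr was called higher in every setting run. Its log2 fold change lay between 0.978 and 1.118 when a library was left out and the filter applied again, and between 0.998 and 1.122 when the same genes were kept. Ahr and Nqo1 were both called with RLE size factors, library size alone, filterByExpr, the likelihood ratio test, the exact test and the 3 tests together, while only 1 member was called without the filter, in DESeq2, with the replicate block and at an FDR under 0.01. When a library was left out, between 1 and 2 members were called with the same genes kept, and 1 with the filter applied again, where Nqo1 no longer passed it without any KO library, since 2 KO libraries cannot meet a minimum of 3. No member was called lower in any setting. The log2 fold change of Nqo1 was 1.31 without the filter (FDR = 0.0659), 1.34 (1.335) in DESeq2 (FDR = 0.0591) and 1.30 (1.295) with the replicate block (FDR = 0.0705), and ranged from 1.235 to 1.402 without each WT library and from 1.169 to 1.536 with the same genes kept (1.423, 1.345 and 1.238 without WT replicates 1 to 3, and 1.169, 1.536 and 1.28 without KO replicates 1 to 3). That of Tiparp turned to -0.159 without WT replicate 1 and -0.036 without KO replicate 2 (-0.143 and -0.0425 with the same genes kept), in a range up to 0.601 (0.605). Ahrr in the fits without the filter went from 0.98 to -0.774 without KO replicate 1. The fits that leave out a library with the same genes kept or without the filter, and the shifted 3p seed, were added after seeing the data.

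Replicate numbers are shared by the groups, but same-numbered libraries did not deviate together (correlations of 0.0804, -0.0056 and -0.195), so they were not taken as pairs. With the replicate block, 1606 genes were called, against 2197 without it and 691 when WT replicate 2 was left out. Among the lists, the ligand metabolism genes called higher stayed at 4 without each KO library with the same genes kept (1 with the filter applied again, which removed genes) and fell to 2 without each WT library. Levels under 0.227 CPM, which include Cyp1b1 and part of the Cyp1a1 and Ahrr values, are below 3 counts in at least 1 library. Library size alone moved the median of all genes to -0.06 from 0.02, and Tiparp to 0.05.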
